A study of Mus musculus with 12 samples.

Results

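The proteasome genes are described here in tumour-associated macrophages (TAMs) that had or had not taken up nanoparticles. Members were all genes in the count table whose symbol begins with Psm, a letter from a to g and a number. That gave 54 of 54532 genes: 46 standard proteasome genes (subunits, assembly chaperones, activators and an inhibitor), the 3 immunoproteasome subunits Psmb8, Psmb9 and Psmb10, 4 pseudogenes, and Psmc3ip, a meiotic recombination cofactor that shares the symbol pattern but is no proteasome subunit. A total of 49 members had enough counts to be tested. The rule used names only and no measured value, but the members were chosen with earlier results of these data known.

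The mice bore gliomas and carried the genotype Ntv-a_Ink4a/Arf_KO in every group. Ntv-a is a transgene that places an avian retrovirus receptor under the nestin promoter, and Ink4a/Arf is a tumour suppressor locus. All 6 mice, 4 male and 2 female, received rhodamine-labelled perfluoro-crown-ether (PFCE) nanoparticles into a vein, and 24 hours passed before the tumour was taken. Mice 1 to 4 were male, and mice 5 and 6 were female. Within the gate CD45+/CD11b+/Ly6C-, cells were separated by rhodamine signal, and each animal contributed a library of either sort (rhodamine-positive or rhodamine-negative). The 12 libraries form 2 groups of 6. Both groups come from injected animals, so the comparison is between cells that carried particles and cells of the same tumour that did not. The labels give no age and place all libraries in 1 batch.

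The proteasome is the main machine for breaking down ubiquitin-tagged proteins in the cytosol and nucleus. Its barrel, the 20S core, is built from rings of alpha and beta subunits, and the beta subunits hold the catalytic sites. A 19S cap of ATPases and other subunits binds ubiquitin chains, removes them, unfolds the substrate and feeds it into the barrel. In immune cells, and in other cells under interferon gamma, the inducible subunits encoded by Psmb8, Psmb9 and Psmb10 take the places of those encoded by Psmb5, Psmb6 and Psmb7. The resulting immunoproteasome, together with the PA28 activator encoded by Psme1 and Psme2, shapes the peptides presented on MHC class I.

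Total counts were 13073189 to 17379314 per library. The standard members held between 0.476% and 0.759% of all counts, and their share was higher in the rhodamine-positive library of each of the 6 mice. The 3 immunoproteasome genes held between 0.0536% and 0.138%, and their share was lower in the rhodamine-positive library of each mouse. Levels below are CPM, the count relative to the library's total, after scaling with TMM (trimmed mean of M-values), which assumes that most genes do not differ. The scaling factors of rhodamine-negative libraries were 1.02 to 1.15, and those of rhodamine-positive libraries 0.923 to 0.980. The rhodamine-negative library of mouse 5 stood apart: its chi-square per degree of freedom against the other rhodamine-negative libraries was 77.8 to 126, against 17.5 to 50.1 among those, and it had the highest scaling factor. Differences are log2 fold changes, rhodamine-positive minus rhodamine-negative, from edgeR's quasi-likelihood test with the mouse as a block. A gene is called when its Benjamini-Hochberg adjusted p over all 15014 genes tested is below 0.05.

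Genes of the standard proteasome were modestly higher in TAMs that carried nanoparticles, while of the 3 immunoproteasome genes 1 fell and none rose. Of 45 standard members tested, 25 rose (55.6%) and none fell, against 13.0% of all genes called higher and 13.2% called lower. The median log2 difference of the 45 was 0.28, or 1.22-fold, and that of all genes was -0.020. The called members lay between 0.26 and 0.52, and no member reached a 2-fold change. At an unadjusted p below 0.05, 36 standard members were higher and 1, Psme2b, was lower. The share of all genes at that level was not computed. DESeq2 and limma-voom each called 27 higher and 0 lower, against 13.4% and 13.7% of all genes called higher.

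How many members passed depended on the scaling. When libraries were scaled by their totals only (library size alone), the median of all genes was -0.18. Then 6 standard members were higher, against 5.67% of all genes, and 2 were lower. The median of the standard members was then 0.12, and its distance to the median of all genes was 0.30, as it was with TMM. Rescaling shifts all genes by about the same amount, so this distance could hardly change and is no check of the scaling. Without the mouse as a block 15 members rose, against 8.46% of all genes. Without mouse 6 the number was 14 (9.1% of all genes), and without mouse 3 it was 16 (8.32% of all genes). Without mouse 5 it was 20 (10.6% of all genes), with a median of 0.25.

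**Figure D1:**
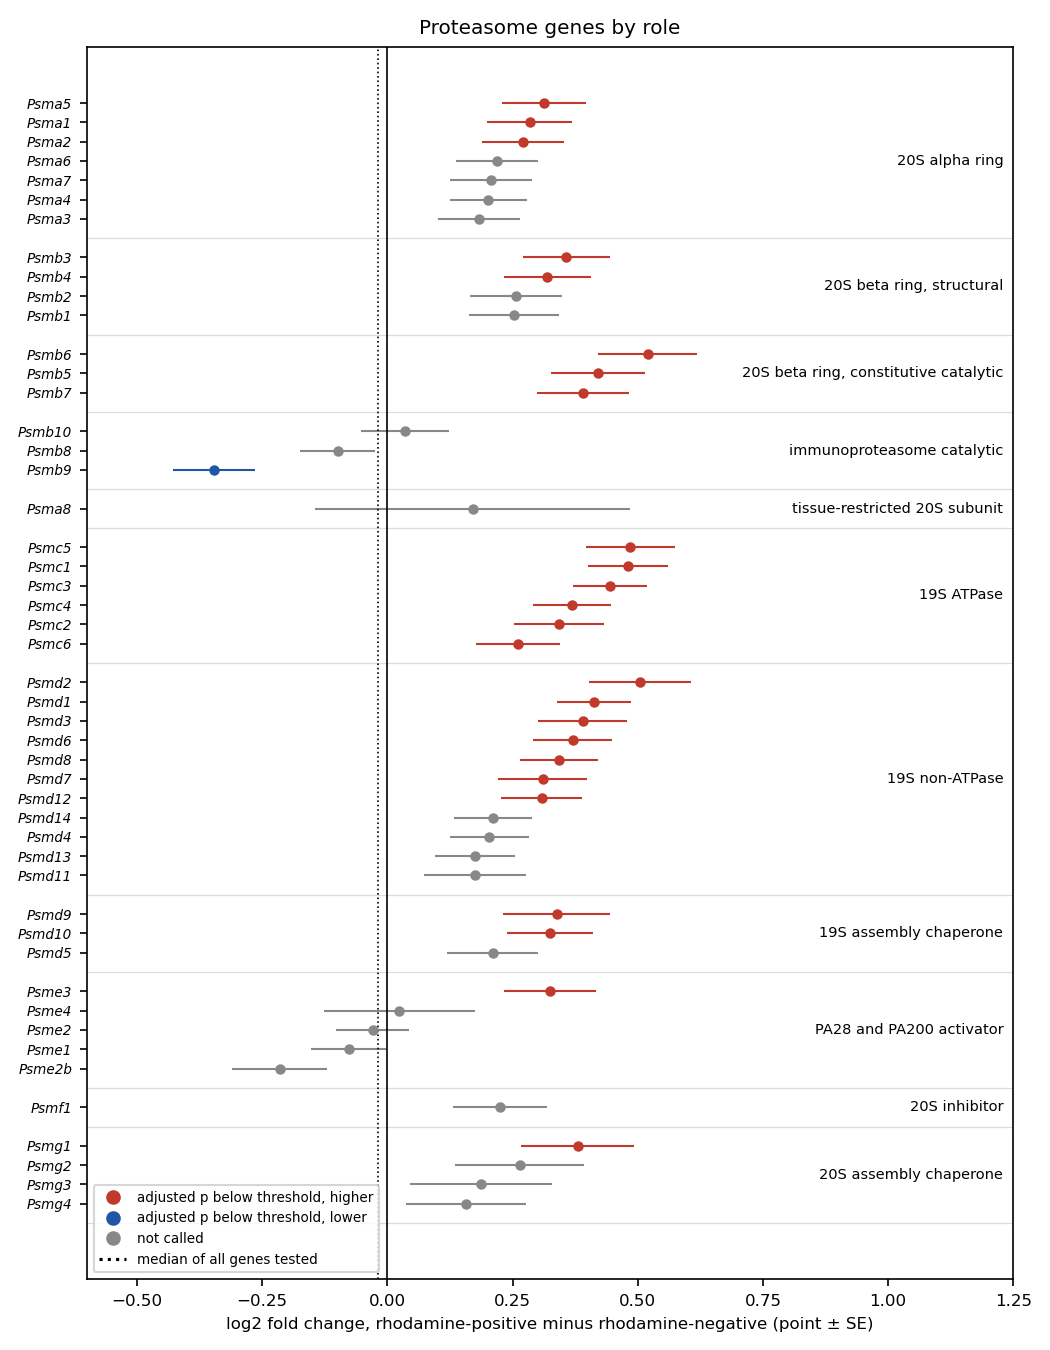
Log2 fold change (rhodamine-positive minus rhodamine-negative, point ± SE, 6 pairs) of the 48 proteasome genes tested, grouped by role, with the median of all genes as a dotted line. All core subunits of the constitutive barrel and cap lie to the right of 0, whereas Psmb8, Psmb10, Psme1 and Psme2 lie near 0 and Psmb9 lies at -0.35.

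The difference was shared across animals. In 30 of the 45 standard members the rhodamine-positive library was the higher in all 6 mice, against 14.2% of all genes, and 24 of those 30 were called. The median over the 45 members was 0.12 in mouse 1, 0.34 in mouse 2, 0.32 in mouse 3, 0.16 in mouse 4, 0.44 in mouse 5 and 0.37 in mouse 6. Mice 1 and 4 therefore showed the smallest differences and mouse 5 the largest. Between 35 and 44 of the 45 members were higher in the rhodamine-positive library of a mouse. The ranges of the groups did not overlap for 5 members (Psmc1, Psmc3, Psmc5, Psmd1 and Psmd6), with the rhodamine-positive libraries above, as in 4.14% of all genes. No standard member had all rhodamine-positive libraries below, as 4.67% of all genes did.

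**Figure D2:**
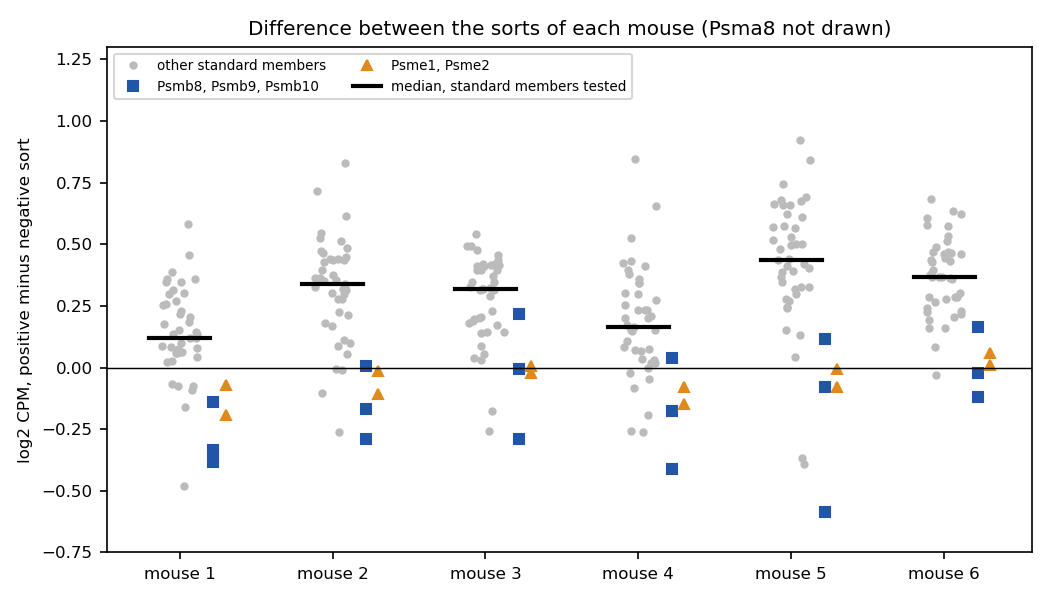
Difference in log2 CPM between the sorts of each mouse, with 1 grey point for each other standard member, squares for the 3 immunoproteasome genes, triangles for Psme1 and Psme2 and a bar at the median of the 45 standard members tested. The bars run from 0.12 in mouse 1 to 0.44 in mouse 5, and squares and triangles lie below the bar in every mouse; Psma8 is left out because its few counts spread from -0.92 to 1.59.

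The 3 constitutive catalytic subunits all rose. Psmb6, which carries the caspase-like site, had 268, 336 and 441 CPM as the lowest, median and highest of the rhodamine-negative libraries and 372, 485 and 558 CPM in the rhodamine-positive ones. Its log2 difference of 0.52 ± 0.10 (SE, n = 6 pairs, adjusted p = 0.00291) was the largest among the standard members, and it was positive in every mouse, from 0.23 in mouse 4 to 0.92 in mouse 5. The ranges of its groups overlapped, because the rhodamine-negative library of mouse 1 (441 CPM) lay above the rhodamine-positive libraries of mice 2 and 4 (372 and 429 CPM). Psmb5, with the chymotrypsin-like site, had 89.0, 99.0 and 131 CPM in rhodamine-negative and 120, 135 and 167 CPM in rhodamine-positive libraries. It rose by 0.42 ± 0.09 (SE, adjusted p = 0.00711), with a difference of only 0.031 in mouse 4. Psmb7, with the trypsin-like site, had 43.5, 57.2 and 67.9 CPM against 65.8, 74.3 and 82.9 CPM and rose by 0.39 ± 0.09 (SE, adjusted p = 0.00913). Psmb5 and Psmb7 missed the threshold when scaled by library size alone, with adjusted p = 0.0532 and 0.0782. In the male mice alone they missed it as well, with adjusted p = 0.0781 and 0.0702.

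The promoters of the standard subunits are shown for genes that rose, because proteasome genes are known targets of the transcription factor NRF1, encoded by Nfe2l1, which binds antioxidant response elements. RefSeq promoter windows (GRCm38.p6, 250 bases before and 50 after a start) were at hand for 41 of 49 proteasome genes. The bases before the start that lie outside annotated exons are printed 5′ to 3′ on the gene's strand for Psmb6 (chr11:70525107-70525356, plus strand), Psmb5 (chr14:54618023-54618245, minus strand) and Psmd2 (chr16:20651402-20651651, plus strand). Capitals mark the antioxidant response element TGACNNNGC in Psmb6 and Psmb5 and the ETS-type motif CCGGAAG, on the opposite strand, in Psmd2, which is shown because this motif was the most frequent relative to all genes.
Psmb6: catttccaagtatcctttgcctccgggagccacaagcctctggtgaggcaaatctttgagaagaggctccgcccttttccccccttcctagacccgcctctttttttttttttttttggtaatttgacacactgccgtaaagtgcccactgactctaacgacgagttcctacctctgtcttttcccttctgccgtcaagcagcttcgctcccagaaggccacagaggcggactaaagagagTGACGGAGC
Psmb5: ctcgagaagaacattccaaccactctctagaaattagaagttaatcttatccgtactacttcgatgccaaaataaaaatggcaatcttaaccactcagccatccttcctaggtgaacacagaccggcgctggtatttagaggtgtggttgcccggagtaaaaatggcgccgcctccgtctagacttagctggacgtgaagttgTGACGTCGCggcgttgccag
Psmd2: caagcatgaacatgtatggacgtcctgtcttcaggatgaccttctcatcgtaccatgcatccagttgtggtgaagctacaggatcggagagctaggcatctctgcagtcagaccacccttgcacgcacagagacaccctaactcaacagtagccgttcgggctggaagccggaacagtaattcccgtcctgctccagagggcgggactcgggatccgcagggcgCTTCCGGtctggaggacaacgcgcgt

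The match began 9 bases before the start of Psmb6, 47 before that of Psmb5 and 26 before that of Psmd2. Over both strands of the whole windows, TGACNNNGC was found in 6 of 38 standard members (15.8%) and in 14.0% of 27025 genes with a window. The ETS-type motif CCGGAAG was found in 14 of 38 (36.8%) and in 9.93% of all genes. The CCAAT box (CCAAT) was found in 13 of 38 (34.2%) and in 41.1% of all genes. The first letters of the antioxidant response element, TGAC, also begin motifs of AP-1 and CREB factors, so matches can overlap with those. A match describes the sequence and is no evidence of binding.

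Among the 11 genes of the alpha ring and the structural beta subunits, 5 rose and 6 did not pass. Of 7 alpha ring genes 3 rose, namely Psma5, Psma1 and Psma2 (0.31, 0.28 and 0.27). Psma5 had 89.5, 117 and 143 CPM as lowest, median and highest of the rhodamine-negative libraries and 121, 139 and 191 CPM of the rhodamine-positive ones (adjusted p = 0.0182), with overlapping ranges. The 4 that did not pass were Psma6 at 0.22, Psma7 at 0.21, Psma4 at 0.20 and Psma3 at 0.18. Of the 4 structural beta subunits 2 rose, Psmb3 by 0.36 and Psmb4 by 0.32, while Psmb2 and Psmb1 were at 0.26 and 0.25 and missed the threshold (adjusted p = 0.0602 and 0.0572). Psmb3 went from 132, 175 and 215 CPM to 165, 223 and 269 CPM (adjusted p = 0.0107).

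All 6 ATPases of the 19S cap, which unfold the substrate and open the gate of the barrel, rose. Their log2 differences were 0.49 for Psmc5, 0.48 for Psmc1, 0.44 for Psmc3, 0.37 for Psmc4, 0.34 for Psmc2 and 0.26 for Psmc6. Psmc6 missed the threshold without mouse 2, 3, 5 or 6 (adjusted p from 0.0710 to 0.115) and in 6 other settings, among them no block and library size alone. Psmc1 had the smallest p of all members. Its levels were 97.6, 116 and 137 CPM in rhodamine-negative and 147, 165 and 178 CPM in rhodamine-positive libraries, with an SE of 0.08 and an adjusted p of 0.00132. The lowest rhodamine-positive library thus lay above the highest rhodamine-negative one.

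Of the 11 other cap subunits, 7 rose. Psmd2 and Psmd1, the large scaffold subunits of the cap base, rose by 0.50 ± 0.10 and 0.41 ± 0.07 (SE). Psmd1 had 125, 141 and 160 CPM in rhodamine-negative libraries and 165, 190 and 219 CPM in rhodamine-positive ones (adjusted p = 0.00216), again without overlap. Psmd2 differed more between mice, from 0.088 in mouse 2 to 0.84 in mouse 4. The lid subunits Psmd3, Psmd6, Psmd8, Psmd7 and Psmd12 rose by 0.39, 0.37, 0.34, 0.31 and 0.31. Psmd14, the deubiquitinase that strips ubiquitin chains, was at 0.21 and Psmd4, a ubiquitin receptor, at 0.20, and neither passed (adjusted p = 0.0670 and 0.0760). Psmd13 and Psmd11, also of the lid, were at 0.17 each and did not pass. Of all members called higher, Psmb6, Psmc1, Psmc3, Psmc5, Psmd1 and Psmd2 passed at 0.05 in every setting tried and with each mouse left out.

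Of the 7 assembly factors, 3 rose. Among the chaperones of the cap, Psmd9 and Psmd10 rose by 0.34 and 0.32, and Psmd5 was at 0.21 and did not pass. Psmd10, also known as gankyrin, had 34.0, 38.8 and 46.3 CPM in rhodamine-negative and 43.9, 48.5 and 55.4 CPM in rhodamine-positive libraries (adjusted p = 0.0165). Of the chaperones that build the 20S barrel, Psmg1 rose by 0.38 ± 0.11 (SE, adjusted p = 0.0292), from 17.6, 23.5 and 29.9 CPM to 24.0, 30.4 and 36.3 CPM, with a negative difference in mouse 1. Psmg2, Psmg3 and Psmg4 were at 0.26, 0.19 and 0.16 with SEs of 0.13, 0.14 and 0.12 and did not pass. Psmf1, a protein that binds the barrel and inhibits it in vitro, was at 0.22 ± 0.09 (SE, adjusted p = 0.0973), with 38.3, 39.8 and 45.9 CPM against 40.2, 49.2 and 53.9 CPM.

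The activators of the PA28 family did not move together. Psme3, which encodes the nuclear PA28 gamma, rose by 0.32 ± 0.09 (SE, adjusted p = 0.0225), from 82.4, 92.8 and 114 CPM to 100.1, 117 and 130 CPM. It missed the threshold without mouse 1, 3, 4 or 6 (adjusted p from 0.0508 to 0.0772), with library size alone and with the deposited log2 values (adjusted p = 0.0637). In contrast, Psme1 and Psme2, the interferon-inducible PA28 alpha and beta genes, were at -0.077 ± 0.074 and -0.030 ± 0.073 (SE), with adjusted p = 0.472 and 0.798. Psme1 had 195, 242 and 365 CPM in rhodamine-negative and 181, 234 and 367 CPM in rhodamine-positive libraries, and Psme2 had 168, 224 and 329 CPM against 166, 214 and 343 CPM. With library size alone Psme1 was called lower (-0.24, adjusted p = 0.0283). Psme2b, a near copy of Psme2, was at -0.21 ± 0.09 (SE, adjusted p = 0.117) and its reads cannot be told from those of Psme2 with certainty. It was called lower with library size alone (-0.37), with a stricter filter (-0.27) and with an offset for GC content and length (-0.31). Psme4, the PA200 activator, was at 0.023 ± 0.15 (SE), and its estimate turned negative with library size alone, with a stricter filter, with the deposited log2 values and without mouse 1 or 2.

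Of the immunoproteasome subunits, 1 of 3 fell and none rose. Psmb9, the inducible counterpart of Psmb6, fell by 0.35 on the log2 scale (SE 0.08, adjusted p = 0.00998) and was lower in all 6 mice, as were 14.0% of all genes. By mouse, its level went from 155 to 119 CPM, from 104 to 85.0, from 127 to 103, from 129 to 96.9, from 175 to 116 and from 279 to 257 CPM for mice 1 to 6. The fall was largest in mouse 5 (-0.58) and smallest in mouse 6 (-0.12). The groups overlapped widely, since mice differed more than sorts did, and without mouse 5 Psmb9 was at -0.29 (adjusted p = 0.0232). Without the mouse as a block Psmb9 was at -0.32 and did not pass (adjusted p = 0.458).

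Psmb8, the counterpart of Psmb5, had 423, 552 and 819 CPM as lowest, median and highest of the rhodamine-negative libraries and 376, 516 and 807 CPM of the rhodamine-positive ones. Its difference was -0.099 ± 0.075 (SE, adjusted p = 0.358), with small negative values in all 6 mice, and it was called lower with library size alone (-0.26, adjusted p = 0.0201). Psmb10, the counterpart of Psmb7, had 120, 160 and 230 CPM against 120, 165 and 259 CPM. Its difference was 0.035 ± 0.088 (SE, adjusted p = 0.803), positive in 5 mice and -0.34 in mouse 1. The sign of Psmb10 turned negative with library size alone (-0.12), with a stricter filter, with the GC content and length offset, in male mice alone and without mouse 3.

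Psmb8 and Psmb9 lie in the MHC region of chromosome 17, at positions 34197721 to 34201454 (plus strand) and 34181987 to 34187764 (minus strand), and Psmb10 lies on chromosome 8 at 105935735 to 105938444 (minus strand, GENCODE vM21, mm10). In the promoter windows of the 3, a gamma-activated site (TTCNNNGAA) was found in Psmb8 only, as in 9.55% of all genes. It is shown because such sites are known from promoters of interferon gamma target genes. The site, with 8 flanking bases on either side and the motif in capitals, begins 97 bases before the RefSeq start (chr17:34198090-34198114, plus strand). In GENCODE vM21 other transcripts of Psmb8 start further upstream, so the stretch lies inside the annotated gene, in the UTR of transcript Psmb8-201.
Psmb8: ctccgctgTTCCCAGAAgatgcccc
A match to the interferon-stimulated response element was found in 0 of the 3 windows, in 5 of 38 standard members (13.2%: Psmb3, Psmd4, Psmd9, Psme1 and Psmg4) and in 3.99% of all genes. The gamma-activated site was found in 2 of 38 standard members (5.26%), Psmd2 and Psmg1. No match says only that these letters are not in these windows.

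**Figure D3:**
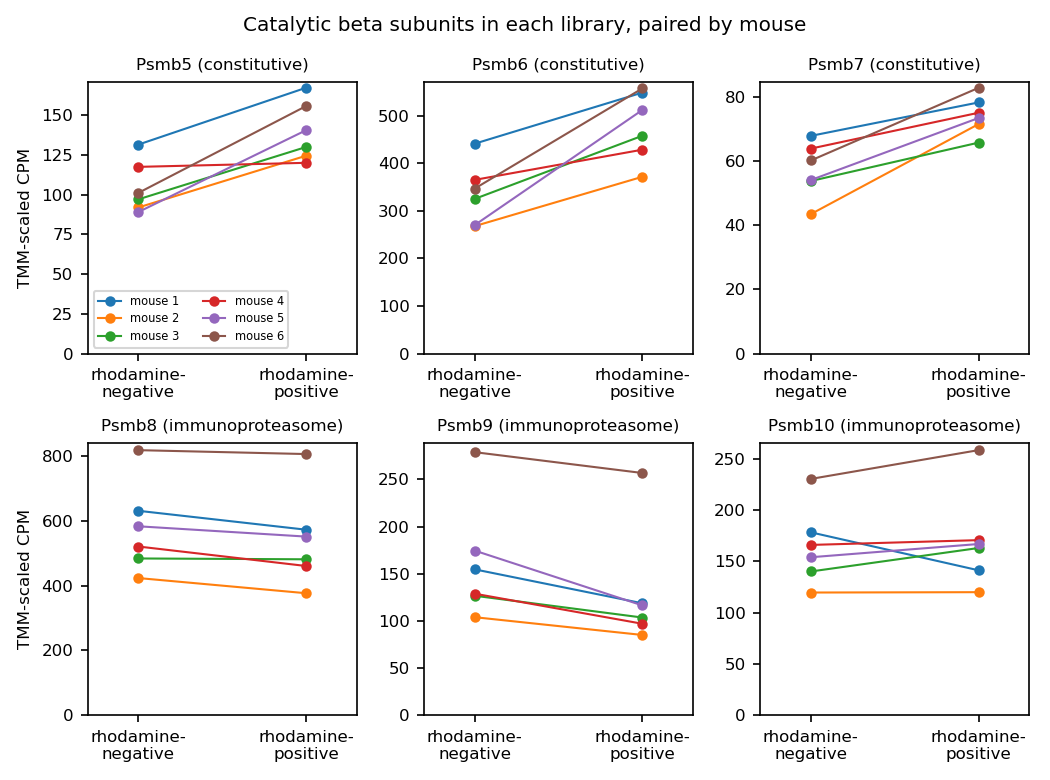
TMM-scaled CPM of the constitutive catalytic subunits (top) and their immunoproteasome counterparts (bottom), with 1 line per mouse joining its rhodamine-negative and rhodamine-positive library and axes that start at 0. Lines of Psmb6 rise from 268 to 441 CPM up to 372 to 558 CPM, lines of Psmb9 fall, and mouse 6 lies highest for all 3 immunoproteasome genes in both sorts.

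Set against the subunits they replace, the immunoproteasome genes were lower in rhodamine-positive libraries in every mouse. This within-library ratio does not depend on the scaling. It also falls where only the constitutive gene rises, and Psmb5, Psmb6 and Psmb7 were each higher in all 6 mice. Of the immunoproteasome genes themselves, only Psmb9 was called lower, while Psmb8 was at -0.099 and Psmb10 at 0.035. The log2 ratio of Psmb9 to Psmb6 had a median of -1.36 in rhodamine-negative and -2.14 in rhodamine-positive libraries, and its difference was -0.87 ± 0.32 (SD, n = 6). For Psmb8 to Psmb5 the medians were 2.29 and 1.91, with a difference of -0.52 ± 0.19 (SD, n = 6). The ratio of Psmb10 to Psmb7 had medians of 1.42 and 1.18 and a difference of -0.36 ± 0.23 (SD, n = 6), of which mouse 3 showed -0.071. These differences are a description and were not tested as a score.

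**Figure D4:**
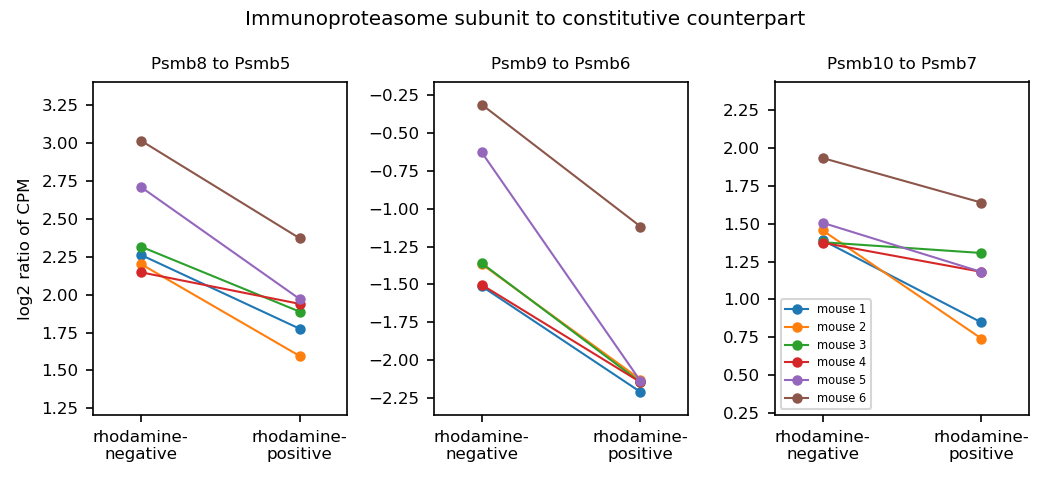
Log2 ratio of CPM of each immunoproteasome gene to its constitutive counterpart, with 1 line per mouse and the same axis span in the 3 panels. All 18 lines fall from the rhodamine-negative to the rhodamine-positive library, by 0.071 to 1.51.

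Levels of different genes were compared as CPM per kilobase of the gene's principal coding transcript, which depends on the transcript chosen. In rhodamine-negative libraries Psmb6 was the most abundant member at 421 ± 81.6 CPM per kilobase (SD, n = 6), followed by Psmb8 at 354 ± 85.5 and Psmb2 at 268 ± 44.6. The spreads of Psmb6 and Psmb8 overlap, so their order is not resolved. Psmb8 was 3.08 ± 0.80 times as abundant as Psmb5 in rhodamine-negative and 2.13 ± 0.40 times in rhodamine-positive libraries. Psmb10 was 2.54 ± 0.42 and 2.01 ± 0.46 times as abundant as Psmb7, whereas Psmb9 was at 0.288 ± 0.11 and 0.156 ± 0.057 of the level of Psmb6 (SD, n = 6). Between rhodamine-negative and rhodamine-positive libraries, Psmb9 moved from rank 13 to rank 23 of the 49 members tested, Psmb10 from rank 11 to rank 16, and Psmb5 from rank 15 to rank 12. Psma8, the testis-enriched alpha subunit, was lowest at 3.05 and 3.61 CPM per kilobase in the rhodamine-negative and rhodamine-positive libraries.

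Over all 6 mice, the immunoproteasome genes, Psme1 and Psme2 had a wider spread than the core subunits had. Mouse 6 was the highest for each of these genes in both sorts and contributed to this spread. In rhodamine-positive libraries Psmb9 was at 257 CPM in mouse 6 and 85.0 to 119 CPM in the others. Psmb8 was at 819 and 807 CPM in the 2 sorts of mouse 6, and at most 631 and 573 CPM in the other mice. Psmb10 was at 259 CPM in the rhodamine-positive library of mouse 6 and at 120 to 171 CPM in those of the others. The spread without mouse 6 was not computed. Whether these genes also varied more than the core subunits among the other mice is therefore not shown. The coefficient of variation over the 6 rhodamine-negative libraries was 23.1% to 38.9% for Psmb8, Psmb9 and Psmb10 and 7.17% to 19.4% for the 31 constitutive core subunits. In rhodamine-positive libraries it was 27.2% to 49.1% and 5.27% to 17.1%. For Psme1 and Psme2 it was 22.7% in rhodamine-negative libraries, and 25.3% and 25.8% in rhodamine-positive ones. Psme3, at 12.1% and 8.67%, lay within the ranges of the core subunits. Mouse 6 had the highest level of Psmb8, Psmb9, Psmb10, Psme1, Psme2 and Psme2b in both sorts, and also of Psma4, Psmc1, Psmc3, Psmc4, Psmd3, Psmd7 and Psmd13. The same mouse had 527 and 304 CPM of Irf1, the interferon-induced transcription factor, against group means of 253 ± 138 and 139 ± 84.0 CPM (SD, n = 6), and 482 and 406 CPM of the peptide transporter gene Tap1, against 214 ± 140 and 177 ± 118 CPM. These means include mouse 6. Not all genes linked to interferon gamma were high in mouse 6. The receptor gene Ifngr1 was at 485 and 287 CPM, against group means of 511 ± 68.8 and 339 ± 38.5 CPM (SD, n = 6). The kinase gene Jak2 was at 59.0 and 22.5 CPM, against 72.4 ± 34.4 and 29.4 ± 7.59 CPM.

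Genes of the interferon gamma axis, which induces the immunoproteasome, were described beside them from a list of 19 genes. Of these, 8 fell and 1 rose, against 13.2% of all genes called lower and 13.0% called higher, with a median of -0.26. The log2 differences of those that fell were -0.90 for Irf1, -1.57 for the feedback inhibitor Socs1, -0.59 for the receptor chain Ifngr1 and -1.29 for the chemokine Cxcl9. They were -1.22 for the kinase Jak2, -0.28 for the transcription factor Irf9, -0.48 for Nlrc5, the transactivator of MHC class I genes, and -0.51 for the guanylate-binding protein gene Gbp5. Erap1, which trims peptides in the endoplasmic reticulum, rose by 0.33. Tap1, the neighbour of Psmb9, was at -0.27 and did not pass (adjusted p = 0.0909) although it was lower in all 6 mice.

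The partners of the proteasome outside the symbol pattern were called about as often as all genes were. Of 29 genes tested, 4 rose and 2 fell, against 13.0% and 13.2% of all genes, and the median was 0.094. Vcp, the unfoldase that delivers substrates to the proteasome, rose by 0.47 ± 0.09 and the proteasome-bound deubiquitinase Usp14 by 0.37 ± 0.08 (SE). Adrm1, which encodes a ubiquitin receptor of the cap, rose by 0.26 ± 0.09 (SE), and Sem1, the smallest cap subunit, was at 0.23 and did not pass (adjusted p = 0.0504). Uba1, the main ubiquitin-activating enzyme, was at 0.27 and did not pass either (adjusted p = 0.0501). Ddi2, the protease that activates NRF1, fell (-0.62 ± 0.12, SE), as did Zfand5, a proteasome-binding zinc finger protein (-0.75 ± 0.21, SE). Nfe2l1 itself was at 0.16 ± 0.12 and Nfe2l2 at -0.12 ± 0.08 (SE), and neither passed.

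Markers of cell types and of the cell cycle moved between the same sorts, in which 13.0% of all genes were called higher and 13.2% lower. All 8 dendritic cell markers fell (median -2.29), and their summed level was 412 to 1485 CPM in rhodamine-negative and 164 to 283 CPM in rhodamine-positive libraries. Mouse 5 had the highest of these rhodamine-negative levels, at 1485 CPM, with Psmb9 at -0.58 and a median of the standard members of 0.44. Mouse 4 had the lowest, at 412 CPM, with Psmb9 at -0.41 and a median of 0.16. For mouse 6, at 731 CPM, they were -0.12 and 0.37. In mice 1, 2 and 3 the rhodamine-negative levels were 563, 740 and 566 CPM. Psmb9 was at -0.38, -0.29 and -0.29 in these mice, and the medians were 0.12, 0.34 and 0.32. Of 6 macrophage and microglia markers, 4 rose and none fell, with 4947 to 10243 CPM against 9946 to 12159 CPM, and the lowest value was in the rhodamine-negative library of mouse 5. Cell cycle genes rose (10 of 10), from 464 to 590 CPM to 697 to 984 CPM. Markers of T and NK cells summed to 41.9 to 88.7 CPM and 2.70 to 12.2 CPM, most of it from Klrd1 (49.5 ± 16.9 and 6.05 ± 2.82 CPM, SD, n = 6), while Cd3e and Cd3d had at most 6 counts and Trac, Ncr1 and Cd2 at most 11. Markers of B and plasma cells were at 29.4 to 70.2 CPM and 21.8 to 40.7 CPM, and of basophils at 0.964 to 84.4 CPM and 0.134 to 3.05 CPM. Of the B and plasma cell markers, Jchain fell (-7.41) and Cd79b was at 0.27 and did not pass. The neutrophil list summed to 199.9 to 385 CPM and 247 to 413 CPM, nearly all of it from Csf3r (289 ± 71.3 and 318 ± 61.1 CPM, SD, n = 6), while S100a8, S100a9 and Retnlg had at most 26, 32 and 83 counts. For glioma and oligodendrocyte lineage markers the sums were 74.4 to 115 CPM and 32.1 to 76.7 CPM. Of the sort gate genes, Ptprc fell by 0.56, Itgam was at 0.11 and did not pass, Ly6c2 had at most 154 counts and Ly6g at most 1. No listed marker was at 0 in all libraries. The part of these cells and of cycling cells in the proteasome differences was not tested, and in bulk libraries fewer cells of a type and less RNA per cell cannot be told apart.

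Male and female mice were compared by a sort by sex term. It passed for 0 of the 49 members and for 0 of 15014 genes in edgeR, with 3 members and 1160 genes at an unadjusted p below 0.05, and no other tool was run on it. Psmb6 had the smallest p among the members, with a mean difference of 0.38 in the 4 males and 0.80 in the 2 females (adjusted p = 0.618). With 2 females this comparison has little precision. The females are mice 5 and 6, so what sets either of them apart from the males cannot be told apart from sex.

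The remaining members had few counts or stand apart. Psma8 was at 0.17 ± 0.31 (SE), with 24 to 190 counts per library and differences of both signs, and Psmb11, the thymus-specific beta subunit, had at most 6 counts and was not tested. The pseudogenes Psmb5-ps, Psmb6-ps and Psmb7-ps2 had at most 5, 2 and 3 counts. Psmb6-ps2 had 1 to 22 counts in a library, against 4133 to 8215 for Psmb6, and none of the 4 was tested. Psmc3ip rose by 0.39 ± 0.13 (SE, adjusted p = 0.0382), from 11.3, 14.5 and 16.6 CPM to 16.4, 19.1 and 20.2 CPM, and is not counted among the proteasome genes.

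**Figure D5:**
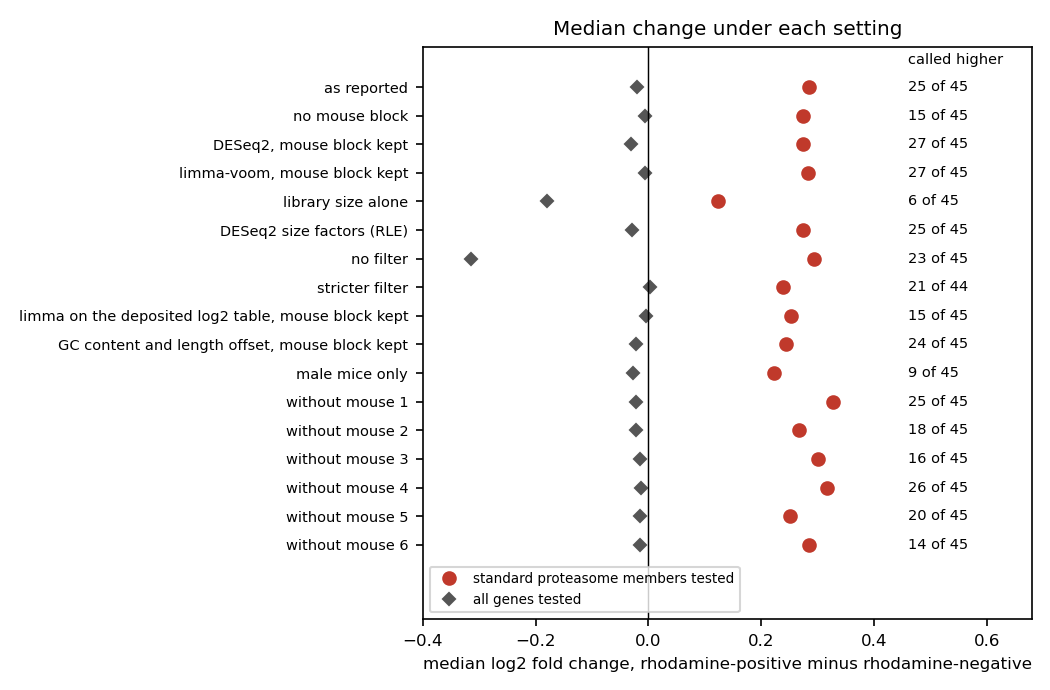
Median log2 fold change of the standard members tested (circles) and of all genes tested (diamonds) under each processing setting, with the number of standard members called higher at the right. The circles lie to the right of the diamonds in every setting and run from 0.12 with library size alone to 0.33 without mouse 1, while the number called runs from 6 to 27.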

How the data were processed

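The authors deposited raw counts of reads per gene and a log2 table of 10605 genes. Build mm10 is named per the submitters' processing notes, along with limma, edgeR, featureCounts 1.4.4, HISAT2 2.1.0, cutadapt and bcl2fastq 2.17. What each tool did and whether counting used strand are not given in the sources used here, so reads of overlapping genes on opposite strands cannot be told apart. In the deposited log2 table, each library equals log2 CPM (0.5 added to counts) plus a constant. All 12 per-library count files held the values of the count table. Members and gene lists were chosen with earlier results of these data known.

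Of 54532 genes, filterByExpr (minimum count 10, minimum total 15) left 15014. Tests used edgeR 4.0.16 in R 4.3.3, and SEs are the absolute log2 fold change over the square root of F. Log2 CPM of pairs used a prior count of 2. The mouse was a block because both sorts came from the same animals. Deviations from group means correlated within mice at r = 0.0775 (mouse 4) to 0.450 (mouse 6), across genes, which are not replicates. For mouse 4 this was below the highest correlation with another mouse (0.187). No library was a copy of another of its group (lowest chi-square per degree of freedom 17.5). Pairs across the groups were not checked by chi-square. P-values rest on how much the difference between the sorts varied among these 6 mice, with estimates of spread that share information across genes. The block removes differences in level between mice.

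Named with library values were Psmb5 to Psmb10, Psme1, Psme2, the member of each other role with the smallest p and members called lower. Up to 8 genes of the partner and interferon lists were named by smallest p, and others (Tap1, Nfe2l1, Nfe2l2, Gbp5) after their values were seen. Some listed genes are not reported here. Alternatives covered DESeq2 1.42.0, limma 3.58.1, scaling, filters, the block, GC content with length, sex and single mice.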

Additional observations from a re-analysis of the deposited data

Results flagged for a closer look

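In 64 groups of 6 values checked, 5 held a value far from the other 5, and chance flags about 1 in 20 such groups. The rhodamine-positive library of mouse 6 stood apart for Psmb9, at 257 CPM against 85.0 to 119 CPM in the others, and for Psmb10, at 259 CPM against 120 to 171 CPM. Its log2 ratio of Psmb9 to Psmb6 was -1.12, against -2.21 to -2.13 in the other rhodamine-positive libraries. In rhodamine-negative libraries, mouse 6 also had the highest log2 ratio of Psmb10 to Psmb7, at 1.93 against 1.37 to 1.51. Without mouse 6, Psmb9 was at -0.39 (adjusted p = 0.0151) and Psmb10 at 0.0096 (adjusted p = 0.96) in edgeR. The pair of mouse 5 had the largest fall in the ratio of Psmb9 to Psmb6, at -1.51 against -0.80 to -0.64 in the other mice, and without that mouse the mean difference was -0.74.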

How the results depend on the processing

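The median of the standard members was positive in all settings tried. Without the mouse as a block (no pairing), 15 standard members and 1270 genes were higher and Psmb9 did not pass at -0.32. With library size alone the counts were 6 standard members higher and 2 lower (Psme1 and Psme2b) and 852 genes higher and 3142 lower, with a standard median of 0.12, Psmb8 called lower at -0.26 and reversed estimates of -0.12 for Psmb10, -0.14 for Psme4 and -0.0022 for Psmg4. With the stricter filter (mean log2 CPM of at least 3) 1 standard member, Psme2b, was lower, and Psmb10 and Psme4 were at -0.023 and -0.035. The deposited log2 values gave 15 standard members and 1240 genes higher and Psme4 at -0.0073. With the offset for GC content and length 1 standard member, Psme2b, was lower and Psmb10 was at -0.051. In male mice alone 9 standard members were higher, 1005 genes were higher and 1222 lower, and Psmb10, Psma8, Psmg3 and Psmg4 were at -0.027, -0.086, -0.019 and -0.014. At a threshold of 0.01, 12 standard members were higher, with 908 genes higher and 1033 lower. With each mouse left out in turn, 14 (without mouse 6) to 26 standard members and 1257 (without mouse 3) to 1780 genes were higher, and Psmb10 ranged from -0.0011 (without mouse 3) to 0.11. Psme4 was at -0.024 without mouse 1 and -0.14 without mouse 2, and Psma8 ranged from -0.13 without mouse 2 to 0.37 without mouse 3. The cause of these shifts was not tested, apart from fewer mice where animals were left out. Of 736 values of single members other than the immunoproteasome genes, 602 kept direction and side of the threshold, 110 lost the call, 14 gained it and 10 reversed. Summing Psme2 and Psme2b, chosen after seeing the data, gave -0.067 (adjusted p = 0.539). DESeq2 size factors, DESeq2, limma-voom and no filter changed no call of Psmb8, Psmb9 or Psmb10. Psma8, with 24 to 190 counts per library, had the largest SE of the members (0.31).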
